A study of Rattus norvegicus with 18 samples.

Results

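The Enpp genes encode the ectonucleotide pyrophosphatase/phosphodiesterase family, and this account follows Enpp1 to Enpp6 in 2 populations of sorted brain cells from rat pups. The members were taken as every probe set that the platform annotation gives exactly 1 symbol from that list. There were 6 such probe sets of 31142 that are not controls, 1 for each of 6 genes of 13810 named. All of them were on the array type called array A here, and 0 were on array B. The cells came from dissociated whole brains of males on postnatal day 7, with a litter of 10 pups for each biological replicate. A2B5+ cells (5 replicates) carry the gangliosides that the A2B5 antibody binds and include glial progenitors and some neurons. O4+ cells (4 replicates) carry sulfatide and related lipids and are late progenitors and oligodendrocytes. Both were sorted by flow cytometry from untreated brains, as far as the labels say, and no genotype or strain is given in them. Each RNA was measured on both array types, 18 arrays in all. It is not settled whether A2B5+ and O4+ replicates shared litters. The comparison asks which transcripts differ between the sorted populations.

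Enpp proteins are enzymes that sit in the outer cell membrane or are secreted and cut phosphodiester bonds outside the cell. Enpp2, also called autotaxin, is a secreted lysophospholipase D that turns lysophosphatidylcholine into lysophosphatidic acid (LPA), a lipid signal read by the Lpar receptors. Enpp6 cuts glycerophosphocholine and releases phosphocholine, and it is widely used as a marker of newly formed oligodendrocytes. Enpp1 cuts extracellular ATP into AMP and pyrophosphate. Enpp3 also acts on nucleotides and is a surface marker of basophils and mast cells, and Enpp4 cuts dinucleotides on the vessel wall. Enpp5 is the least studied of these enzymes.

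Transcripts of 4 Enpp genes were higher in O4+ than in A2B5+ cells, 1 was lower and 1 was not called. Enpp6 rose 18.2-fold, Enpp4 5.48-fold, Enpp2 5.27-fold and Enpp5 1.74-fold, while Enpp3 was lower in O4+ cells, by a fitted 4.42-fold whose size is uncertain for the reason given with its values (limma, adjusted p from 4.1e-08 to 0.0018, n = 5 and 4). On array A, 32.5% of all tested probe sets were called higher in O4+ cells and 14.7% lower, and the populations did not overlap for 44.0% of them, against 5 of 6 Enpp probe sets. The median log2 difference of all tested probe sets was 0.26. A difference between sorted populations can come from fewer cells of a type or from less RNA per cell, and these data cannot tell the 2 apart. The deposited values are ratios within a probe set, so each gene can be compared between arrays, but levels of different genes cannot be compared. Every Enpp probe set had a median ratio of exactly 1 over its 9 arrays, so that 5 of 9 arrays stood at 1 or above in each. All 6 of 6 therefore passed the filter, a ratio of at least 1 on at least 4 arrays, whichever population was higher.

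**Figure D1:**
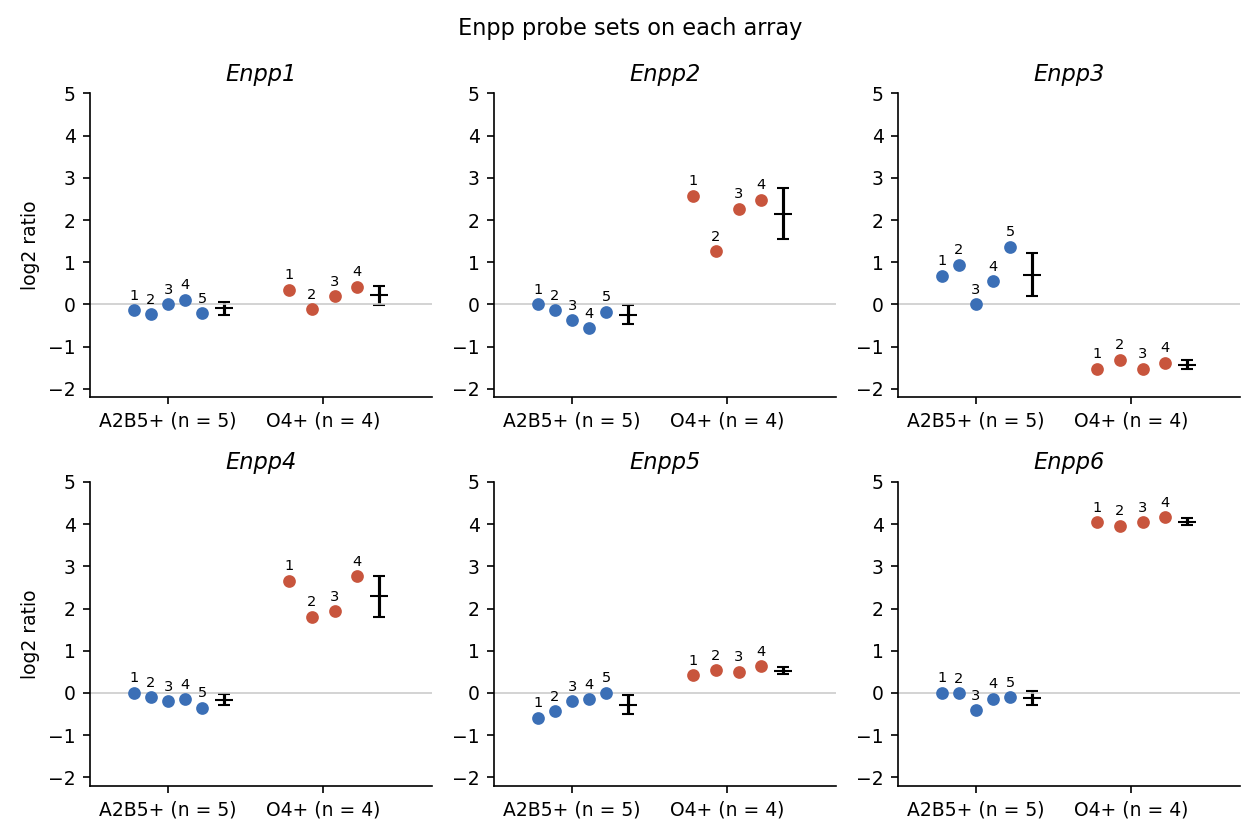
Log2 ratio of each Enpp probe set on the 9 arrays of array A, with A2B5+ replicates in blue and O4+ replicates in red. Numbers give the replicate, and the black bars the mean and SD of each population. Both populations are apart for 5 genes and overlap for Enpp1.

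Of the 6 genes, 4 have an entry in the RefSeq promoter table (build GRCr8). The 250 bases before the annotated start are shown for these 4 because they include the largest rise (Enpp6), the fall (Enpp3) and a pair of neighbours that both rose (Enpp4 and Enpp5). Capitals mark E-boxes, CANNTG, the letters bound by basic helix-loop-helix factors such as the Olig proteins. The sequences lie at chr16:52026729-52026978 on the minus strand for Enpp6, chr9:24386321-24386570 on the plus strand for Enpp4, chr9:24414868-24415117 on the minus strand for Enpp5 and chr1:22382739-22382988 on the plus strand for Enpp3, each written 5′ to 3′.
Enpp6: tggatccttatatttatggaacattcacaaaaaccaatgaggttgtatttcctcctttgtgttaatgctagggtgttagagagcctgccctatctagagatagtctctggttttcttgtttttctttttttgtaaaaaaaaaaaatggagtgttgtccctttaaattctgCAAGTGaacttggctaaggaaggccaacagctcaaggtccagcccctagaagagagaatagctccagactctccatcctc
Enpp4: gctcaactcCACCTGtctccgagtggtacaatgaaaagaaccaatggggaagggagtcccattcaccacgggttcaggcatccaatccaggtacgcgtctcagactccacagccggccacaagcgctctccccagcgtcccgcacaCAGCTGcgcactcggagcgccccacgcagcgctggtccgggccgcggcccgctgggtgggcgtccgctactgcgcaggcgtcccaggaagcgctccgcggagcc
Enpp5: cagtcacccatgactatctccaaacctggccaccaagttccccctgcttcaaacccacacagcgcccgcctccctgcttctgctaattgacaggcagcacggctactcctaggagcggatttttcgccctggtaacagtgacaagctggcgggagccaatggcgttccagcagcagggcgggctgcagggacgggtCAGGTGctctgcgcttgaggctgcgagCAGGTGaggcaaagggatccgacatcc
Enpp3: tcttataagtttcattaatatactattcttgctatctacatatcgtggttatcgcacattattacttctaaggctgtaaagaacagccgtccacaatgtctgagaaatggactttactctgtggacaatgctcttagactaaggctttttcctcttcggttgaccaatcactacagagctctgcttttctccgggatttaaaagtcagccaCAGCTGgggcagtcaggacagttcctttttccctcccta
The promoter of Enpp6 was poor in G and C (40.0%) and held 0 CpG dinucleotides, and that of Enpp3 was similar in GC (41.6%) with 5 CpG. Those of Enpp4 and Enpp5 were GC-rich (67.2% and 61.2%), with 24 and 12 CpG. The medians over 33469 promoters were 51.2% and 5. E-boxes were found at 1 position in Enpp6, 2 in Enpp4, 2 in Enpp5 and 1 in Enpp3, and 65.5% of all promoter windows of this length hold at least 1. On either strand, the Sox core ACAAAG matched at 1 position in Enpp6 and at 0 in the others (16.3% of all promoters). The Sox letters AACAAT (10.3% of all promoters) and the Myrf letters CTGGCAC (3.78%) and CTGGTAC (1.78%) matched in 0 of the 4 promoters. CCAAT was present in all 4 (34.0% of all promoters). The GC box GGGCGG matched once, in Enpp5 (30.5% of all promoters), and TATAAA in 0 of the 4 (12.9%). These matches are descriptions of letters and were not tested for binding.

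The lipid enzymes Enpp6 and Enpp2 both rose. The Enpp6 probe set (1391864_at) had ratios of 1, 0.998, 0.753, 0.907 and 0.929 in A2B5+ replicates 1 to 5. In O4+ replicates 1 to 4 its ratios were 16.5, 15.6, 16.6 and 17.9. The lowest O4+ value was 15.6 times the highest A2B5+ value, and the O4+ values spanned a range of only 1.15-fold. On the log2 scale the means were -0.13 ± 0.17 (SD, n = 5) and 4.05 ± 0.08 (SD, n = 4), a difference of 4.19 ± 0.13 (SE; limma, adjusted p = 4.1e-08). Its rise ranked 49 among the 13098 probe sets tested. Markers of newly formed oligodendrocytes, a list without Enpp6, were higher for 9 of 9 tested genes, against 28.7% of all tested genes. The list mean was -1.18 to -0.17 on A2B5+ arrays and 1.71 to 2.21 on O4+ arrays. Markers of mature oligodendrocytes were likewise higher for 9 of 9 tested genes. Their median difference was 5.17, against 2.73 in the newly formed list. The part of either stage in the rise of Enpp6 was not tested.

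Enpp2 (1368536_at) had ratios of 1, 0.911, 0.770, 0.674 and 0.889 in the A2B5+ replicates and 5.97, 2.41, 4.80 and 5.59 in the O4+ replicates. The populations did not overlap. O4+ replicate 2 stood lowest of the O4+ arrays, and still at 2.41 times the highest A2B5+ ratio. The log2 difference was 2.40 ± 0.26 (SE; limma, adjusted p = 6.7e-05), and 2.69 ± 0.16 without O4+ replicate 2 (adjusted p = 4.1e-06). The choroid plexus is a strong source of Enpp2 in brain. Of 9 of its markers tested, 2 were higher and 2 lower in O4+ cells, where 28.7% and 18.2% of all tested genes were (0 and 2 with arrays centred, where the shares over all genes were 18.8% and 21.0%). The mean log2 ratio of the list lay between -0.02 and 0.24 on A2B5+ arrays and between -0.39 and 0.37 on O4+ arrays. Part of this list varied about as little as low probe sets, those with a median ratio below 1. After the pattern shared by low probe sets was subtracted, the SD over O4+ arrays was 0.043 for 1 probe set of Otx2. It was 0.050 for 1 each of Prlr and Aqp1, but 1.04 for Ttr. The median of that SD was 0.047 in low probe sets and 0.28 in all tested ones. Ttr, the transthyretin of choroid plexus, had a difference of -0.51 ± 0.41 (limma, adjusted p = 0.31). The part of choroid plexus cells in the rise of Enpp2 was not tested.

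The nucleotide enzymes did not move together. Enpp3 (1367905_at) had ratios of 1.60, 1.92, 1, 1.47 and 2.58 in the A2B5+ replicates and 0.347, 0.402, 0.348 and 0.384 in the O4+ replicates. All O4+ arrays lay below all A2B5+ arrays, and the A2B5+ arrays varied among themselves by 2.58-fold. The log2 difference was -2.14 ± 0.24 (SE; limma, adjusted p = 8.0e-05). The size of this fall is uncertain, because the O4+ values varied about as little as those of low probe sets. After the pattern shared by probe sets with a median ratio below 1 was subtracted, the SD of Enpp3 over the O4+ arrays was 0.054. The median of that SD was 0.047 in those low probe sets and 0.28 in all tested ones.

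Most mast cell and basophil markers were lower in O4+ cells, as Enpp3 was. Of 10 tested, 9 were lower and 0 higher, where 18.2% and 28.7% of all tested genes were. The largest falls were those of the mast cell protease Mcpt1l1 (-4.02 ± 0.44), the carboxypeptidase Cpa3 (-3.76 ± 0.43) and the chymase Cma1 (-3.56 ± 0.51). The mean log2 ratio of the 10 markers was 0.69, 1.74, -0.08, 0.83 and 1.98 in A2B5+ replicates 1 to 5. On the O4+ arrays it lay between -1.59 and -0.92. Within the A2B5+ arrays, Enpp3 and these markers were both highest in replicate 5, next in replicate 2 and lowest in replicate 3. Replicates 1 and 4 stood in opposite order. On the O4+ arrays both were highest in replicate 2, but Enpp3 was lowest in replicate 1 and the marker mean in replicate 4. Microglia markers were also lower (12 of 12 tested). Their list mean was -0.07, 0.75, 0.20, 0.63 and 0.67 in A2B5+ replicates 1 to 5, so replicates 2 and 5 stood highest here too, and replicate 1 lowest. In O4+ replicates 1 to 4 it was -0.74, -0.05, -1.49 and -1.32, again highest in replicate 2. A similar order of replicates was therefore not particular to the mast cell and basophil list. In other marker lists, 10 of 11 endothelial, 4 of 6 progenitor, 7 of 11 neuron and 6 of 10 astrocyte and radial glia markers were lower. In the same order, 0, 1, 2 and 0 were higher. Of 12 mural and meningeal markers, 2 were lower and 0 higher, with the lower share near the 18.2% of all genes. The median difference was -2.58 for the mast cell and basophil list, -2.02 for the endothelial and -1.39 for the microglia list. The part of any of these cell types in the fall of Enpp3 was not tested.

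**Figure D2:**
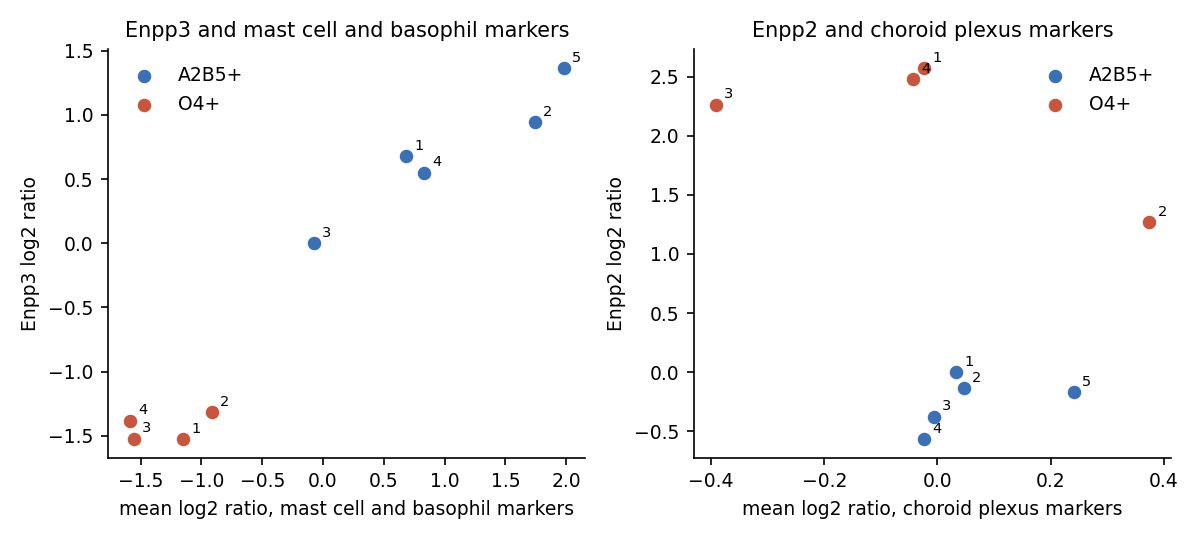
Left, log2 ratio of Enpp3 against the mean log2 ratio of 10 mast cell and basophil markers on each array, where A2B5+ replicate 5 is highest and replicate 3 lowest of its population on both axes. Right, Enpp2 against the mean of 9 choroid plexus markers, where the marker means of both populations overlap. Points are arrays, numbered by replicate, and the part of these cell types in either difference was not tested.

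Enpp4 (1373912_at) had ratios of 1, 0.927, 0.871, 0.904 and 0.783 in the A2B5+ replicates and 6.31, 3.51, 3.83 and 6.80 in the O4+ replicates. The populations were apart by 3.51-fold at their closest, and O4+ replicates 1 and 4 stood above replicates 2 and 3. The log2 difference was 2.45 ± 0.21 (SE; limma, adjusted p = 1.5e-05). Of 11 tested markers of endothelial cells, on which Enpp4 is best known, 10 were lower in O4+ cells and 0 higher. Over all tested genes, 18.2% were lower and 28.7% higher. The endothelial list mean was 0.17 to 0.59 on A2B5+ arrays and -2.15 to -0.92 on O4+ arrays. The mean of 7 mature oligodendrocyte markers on array A was -1.04 to -0.61 on the A2B5+ arrays. On O4+ replicates 1 to 4 it was 4.44, 3.99, 3.88 and 4.46. The mean of the newly formed oligodendrocyte list on the same arrays was 1.89, 1.71, 2.21 and 2.03, highest in replicate 3. In each of these oligodendrocyte lists, 9 of 9 tested genes were higher in O4+ cells. The part of any of these cell types in the rise of Enpp4 was not tested.

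Enpp1 (1370047_at) had ratios of 0.905, 0.851, 1, 1.08 and 0.864 in the A2B5+ replicates and 1.27, 0.926, 1.14 and 1.34 in the O4+ replicates. The populations overlapped, through O4+ replicate 2. The log2 difference of 0.31 ± 0.15 was not called (limma, adjusted p = 0.11; exact permutation p = 0.063, two-sided). It was 0.14 ± 0.15 once each array was centred on its median (adjusted p = 0.48), and 0.41 ± 0.13 without O4+ replicate 2, where it was called (adjusted p = 0.030). The 2910 probe sets of array A with a median ratio below 1 shifted by 0.30 in the same direction.

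Enpp5 (1388926_at) rose modestly. Its ratios were 0.664, 0.738, 0.868, 0.904 and 1 in the A2B5+ replicates and 1.34, 1.46, 1.42 and 1.55 in the O4+ replicates. The populations did not overlap, and the highest A2B5+ array lay 1.34-fold below the lowest O4+ array. The log2 difference was 0.80 ± 0.15 (SE; limma, adjusted p = 0.0018), and 0.63 ± 0.13 with arrays centred (adjusted p = 0.0037). The low probe sets shifted by 0.30 in the same direction. After their pattern was subtracted, the SD of Enpp5 was 0.13 on A2B5+ and 0.085 on O4+ arrays. The medians of that SD were 0.26 and 0.28 in all tested probe sets, and 0.046 and 0.047 in low ones. The part of this pattern in the rise was not tested.

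**Figure D3:**
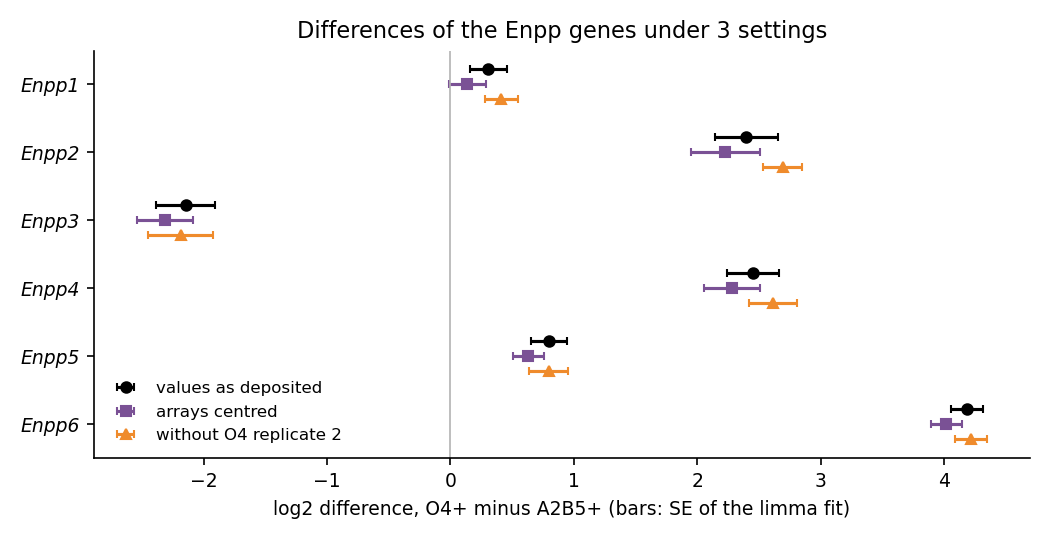
Log2 difference, O4+ minus A2B5+, of each Enpp gene with values as deposited (circles), with each array centred on its median (squares) and without O4+ replicate 2 (triangles). Bars are the SE of the limma fit. Enpp6 lies near 4, Enpp2 and Enpp4 between 2.23 and 2.69, Enpp5 between 0.63 and 0.80, Enpp3 below -2 and Enpp1 between 0.14 and 0.41.

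The differences of the Enpp genes were also set against each other. For each pair, the difference between their log2 ratios was taken within each array, where an array's own scale cancels, and set against the other population's arrays in a two-sided exact permutation test. Of 15 pairs, 14 differed at an adjusted p under 0.05, and 13 pairs had no overlap between A2B5+ and O4+ arrays. The smallest adjusted p was 0.018, from an exact permutation p of 0.016, the smallest the test can give here. The pairs share genes and arrays and are not independent. No share over pairs of genes in general was computed, and 44.0% of single probe sets already had no overlap, so these counts are not particular to the Enpp genes. Enpp6 rose more than Enpp4 by 1.73 ± 0.23 and more than Enpp2 by 1.79 ± 0.28 (SE, log2; exact permutation adjusted p = 0.018 for both). The difference of Enpp5 exceeded that of Enpp1 by 0.49 ± 0.16 with overlapping values (exact permutation p = 0.032, adjusted p = 0.034). Enpp2 and Enpp4 differed by -0.06 ± 0.21 (exact permutation adjusted p = 0.76), with a 95% confidence interval from -0.52 to 0.41. The interval is a t interval with the variance pooled over both populations, whereas the SE of each pair does not pool it.

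By gene order in RefSeq (GRCr8), 4 of the 6 genes lie in neighbouring pairs. Enpp3 and Enpp1 are consecutive protein-coding genes, and their fitted differences were 2.45 ± 0.31 apart on the log2 scale (SE; exact permutation adjusted p = 0.018), a size as uncertain as that of the fall of Enpp3. Ccn2, a matricellular protein gene on the other side of Enpp1, had a difference of -0.97 (limma, adjusted p = 0.0076). Moxd1, the gene after Ccn2, had a difference of -1.48 (limma, adjusted p = 9.8e-04). Med23, on the other side of Enpp3, had -0.74 and was not called (limma, adjusted p = 0.17). Enpp4 and Enpp5 are likewise consecutive, on opposite strands, and both rose, Enpp4 by 1.65 ± 0.29 more (SE; exact permutation adjusted p = 0.018). The next gene after Enpp5 is Rcan2, an inhibitor of the phosphatase calcineurin, and it rose by 2.95 ± 0.27 and 2.35 ± 0.34 in its 2 probe sets (limma, adjusted p = 2.1e-05 and 4.0e-04). The neighbours of Enpp6 were not alike, with a difference of 0.06 for Stox2 (limma, adjusted p = 0.89), a rise of 0.49 for Trappc11 (0.017) and a difference of -0.88 for Irf2 (0.063). Beside Enpp2, which rose, Dscc1 fell by 2.17 (limma, adjusted p = 1.3e-04), and Taf2, Ccn3 and Mal2 had differences of -0.26, -0.31 and -0.20 and were not called.

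For each Enpp gene, the named genes of array A with the most similar profile were found by the root mean square distance between log2 ratios over 9 arrays, after centring each profile on its own mean. Closest to Enpp6 were Tprn (distance 0.21), Gng8 (0.25) and Fah (0.29), which rose by 3.94 ± 0.16, 4.42 ± 0.14 and 4.34 ± 0.18. Closest to Enpp2 were Homer1 (0.16), Stk39 (0.19) and Cdc42ep2 (0.22), and closest to Enpp4 were Arhgef10 (0.14), Nkd1 (0.16) and Dusp3 (0.16). Closest to Enpp3 were Rcsd1 (0.23), Elk3 (0.25) and Rasgrp3 (0.28), each with O4+ ratios no higher than 0.56. Enpp5 lay nearest to Fnbp1 (0.07), Rer1 (0.11) and St8sia3 (0.11), and Enpp1 to Trim11 (0.07), Ssr1 (0.08) and Hnrnpdl (0.08), the last 3 of which were not called. These distances are descriptions and carry no test.

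Genes of the LPA pathway, which holds the receptors and phosphatases of the product of Enpp2 and related membrane proteins, moved both ways. Of 14 tested genes of this list, 3 were higher and 4 lower in O4+ cells, where 28.7% and 18.2% of all 11982 tested genes were, and the list's median difference was 0.26 against 0.12 for all genes. Lpar1, the LPA receptor of oligodendrocytes, had ratios of 0.474 to 1 in A2B5+ cells and 8.85 to 10.8 in O4+ cells in 1 probe set, a rise of 3.79 ± 0.21 (limma, adjusted p = 1.0e-06). Its second probe set rose by 3.62 ± 0.20. Lpar6, another LPA receptor, fell by 1.62 ± 0.21. Among the phosphatases that break LPA down, Plpp2 rose by 2.75 ± 0.25. Plpp1 fell by 0.41 ± 0.15 (limma, adjusted p = 0.047) and Plpp3 by 1.07 ± 0.28 in 1 probe set. Another Plpp3 probe set fell by 1.01 ± 0.22. The remaining one had a difference of -0.66 ± 0.26 and was not called (limma, adjusted p = 0.056). Of the related membrane proteins, Plppr5 rose by 3.99 ± 0.39 in 1 probe set and 1.65 ± 0.23 in another, and Plppr4 fell by 1.74 ± 0.17 in 1 probe set, with -0.93 ± 0.30 and no call in another.

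Genes of choline and glycerophosphocholine turnover, the pathway of Enpp6, also split. Of 23 tested, 10 were higher and 6 lower, where 28.7% and 18.2% of all tested genes were. With arrays centred 8 were higher and 7 lower, against 18.8% and 21.0% of all genes. The list's median difference was 0.13. Slc44a1, a choline transporter, rose by 3.32 ± 0.16, with ratios of 7.90 to 8.54 on the O4+ arrays and 0.597 to 1 on the A2B5+ arrays. Another of its probe sets rose by 2.55 ± 0.16. The remaining probe set rose by 2.12 ± 0.69 with a ratio of 0.712 in O4+ replicate 2 against 7.68 to 9.20 in the other O4+ arrays, and its call ended with arrays centred (limma, adjusted p = 0.059). Gdpd1, a lysophospholipase D that makes LPA inside cells, rose by 1.69 ± 0.36, Gde1 by 1.35 ± 0.19 and the acid sphingomyelinase Smpd1 by 1.14 ± 0.20. The neutral sphingomyelinase Smpd3 fell by 2.58 ± 0.26, Gdpd2 by 1.92 ± 0.33, Pnpla7 by 1.25 ± 0.22 and the choline phosphotransferase Chpt1 by 1.18 ± 0.12. On the other array type, a probe set of Pnpla7 had a difference of -0.02 ± 0.14 (limma, adjusted p = 0.94) and one of Chpt1 had -0.32 ± 0.17 (0.15), neither called. Gpcpd1, which cuts glycerophosphocholine inside cells, fell by 0.97 ± 0.24 on array A but differed by 0.00 ± 0.10 on array B, where it was not called.

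Among genes of extracellular nucleotides and pyrophosphate, the substrates and products of Enpp1 and Enpp3, 7 of 27 were higher and 10 lower. Over all tested genes, 28.7% were higher and 18.2% lower. With arrays centred 3 were higher and 11 lower, where the shares over all genes were 18.8% and 21.0%. The list's median difference was -0.24. Panx1, a channel that releases ATP, rose by 1.75 ± 0.20, and Ankh, an exporter of pyrophosphate and ATP, by 1.55 ± 0.23. Other probe sets of Ankh, on array B, rose by 0.76 ± 0.23 and 0.90 ± 0.15. The nucleotide receptors P2ry2 and P2ry4 rose by 1.20 ± 0.25 and 0.60 ± 0.18, the latter not called with arrays centred (limma, adjusted p = 0.061). P2ry12, a receptor of microglia, fell by 2.63 ± 0.58, P2rx6 by 2.59 ± 0.44, the nucleoside transporter Slc29a1 by 2.09 ± 0.34 and P2ry6 by 1.91 ± 0.37. In that P2ry12 probe set the populations overlapped, with a ratio of 1 in O4+ replicate 2 and 0.869 in A2B5+ replicate 1. Another P2ry12 probe set fell by 1.60 ± 0.29. P2ry12 is also among the microglia markers, whose lower list mean in O4+ cells is given above, and their part in these falls was not tested.

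**Figure D4:**
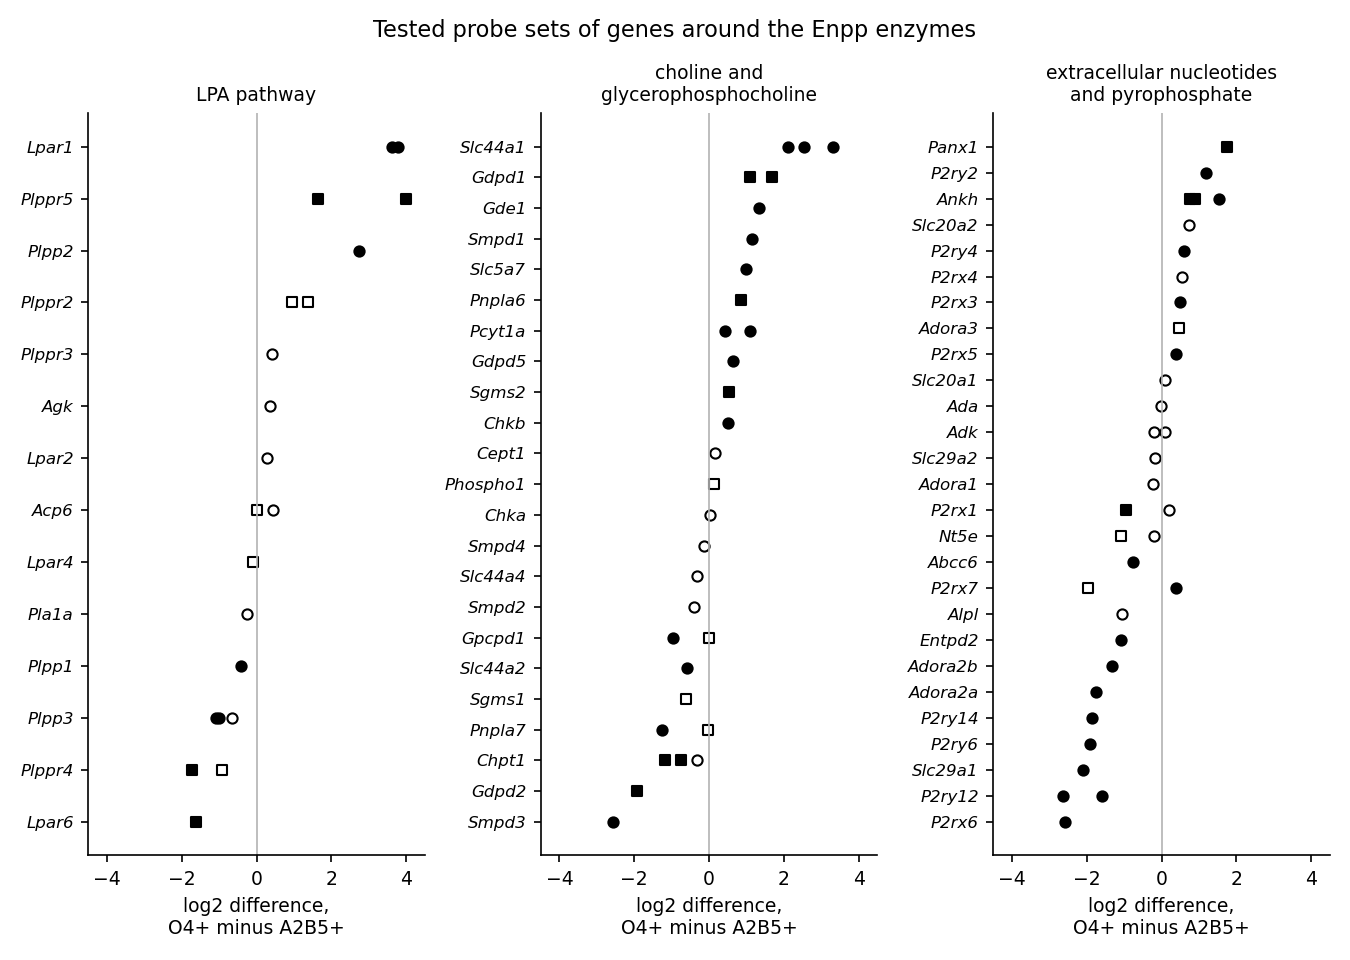
Log2 difference, O4+ minus A2B5+, of every tested probe set of the LPA, choline and nucleotide lists, 1 row per gene, ordered by the gene's mean. Filled symbols are called at an adjusted p under 0.05, open ones are not, circles are array A and squares array B. Each list holds genes on both sides of 0.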

How the data were processed

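Total RNA of A2B5+ and O4+ cells was labelled with biotin and hybridised to 2 types of Affymetrix array, per the labels and probe set names. The deposited values are linear ratios. The submitters' processing notes name GCRMA, a background correction and summary of probe sets, without a version. The step from its output to ratios by the authors is not given in the sources used. The median ratio of a probe set was exactly 1 or lower. Log2 ratios were used without further scaling, and control probe sets were left out. Probe sets with a ratio of at least 1 on at least 4 of 9 arrays were tested, 13098 on array A and 11136 on array B. O4+ was compared with A2B5+ per array type by two-sided moderated tests of limma 3.58.1 (functions lmFit and eBayes, run under R 4.3.3), with Benjamini-Hochberg adjustment over all tested probe sets and a call at an adjusted p under 0.05. In gene lists a gene was called if any of its tested probe sets was. Differences named from a list belong to its most changed called probe set. Up to 4 called genes per list and direction were named, with Lpar1 and Gpcpd1 always, and up to 3 per marker list. Exact permutation tests used scipy 1.17.1. The limma script was tested on simulated data. Symbols came from the platform annotation, and 12748 of 12783 on array A were matched to the RefSeq gene table, with 0 changed. The number of arrays limits precision. The members and lists were chosen with earlier results of these data known. Alternatives covered array centring, filters, array weights, a robust trended prior, a replicate block and leaving out each replicate. For the Enpp genes they also included the exact permutation test without adjustment.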

Additional observations from a re-analysis of the deposited data

How the results depend on the processing

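Enpp2, Enpp3, Enpp4, Enpp5 and Enpp6 kept their direction and stayed called under all 16 alternatives, with differences of 2.23 to 2.81, -2.32 to -1.98, 2.28 to 2.75, 0.63 to 0.87 and 4.02 to 4.26. Enpp1 stayed above 0, at 0.14 to 0.41 (0.24 to 0.41 when 1 replicate was left out), and was called with array weights (0.37, adjusted p = 0.013) and without O4+ replicate 2 (0.41), so that 5 or 6 Enpp probe sets were called; the cause was not tested. The LPA list had 7 higher genes with no filter, and 3 to 5 when 1 replicate was left out (5 without O4+ replicate 4). The nucleotide list had 3 higher genes with arrays centred, and 3 to 7 when 1 replicate was left out (3 without A2B5+ replicate 2, and 4 without A2B5+ replicate 1, O4+ replicate 1 or O4+ replicate 4). The other list counts stayed within 1.5 times in the alternatives run for lists. Array weights, the robust trended prior and the filter on the median ratio were not run for them. With the number in the titles as a replicate block, 5 Enpp probe sets were called as before, and Enpp1 was at 0.28 (adjusted p = 0.15). The titles do not say that a number marks a shared litter. On array A the deviations of same-numbered arrays correlated at 0.02, 0.31, 0.27 and 0.17, and those of other pairs at -0.30 to 0.35. On array B same-numbered arrays correlated at 0.24, -0.13, 0.07 and -0.20. These values do not settle whether a number marks a pair, and the main fits used no pairing. No alternative was run for Enpp genes on array B, which has none. The number of arrays limits what can be seen for small differences such as that of Enpp1.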
